A study of Homo sapiens with 18 samples.

Results

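The microRNA rows of a small RNA count table from HEK293T cells, with and without La (SSB), are described here, apart from the miR-17-92, let-7, miR-10/196 and Drosha-independent hairpins and MIR340. A row was taken when it was at most 500 nt long, when its RNA type named miRNA or precursor RNA and no tRNA, rRNA, snoRNA or lncRNA, and when its name was not on a short list of hairpins left out. Of 5140 rows of that type and length 47 were left out by name, and of the 5093 that remained 3223 were at 0 in all libraries. Rows with identical counts in all 18 libraries were taken once, so that 1870 rows with a count gave 1086 members of the 175935 rows of the table, at 923 loci. The members were 66 to 263 nt long, and 758 of them, at 628 loci, held a hairpin listed by RefSeq. A row was an annotated hairpin or mature arm with 25 nt on each side: 267 members had their edges at that distance from a hairpin and 399 from a mature arm. Of the 399 windows on an arm, 233 also held part of the other arm, so the rows do not separate the 5p from the 3p arm of most hairpins. Of the members 491 had no more than 10 counts over the 18 libraries together.

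HEK293T is a human embryonic kidney line carrying the SV40 large T antigen. Its cells were transfected for 48 h with an siRNA against SSB (siSSB) or with a scramble siRNA (control), and small RNA was taken from whole cells (total), nuclei (nuc) or cytoplasm (cyto), with 3 replicates in each of the 6 groups. All 18 libraries were labelled as made with PNK, polynucleotide kinase, an enzyme that repairs RNA ends so that RNAs with other ends than a microRNA can be ligated. One cell line and 1 siRNA label per arm were used. The study calls the replicates biological and its genomic replicates processed on the same day, and the labels do not tell whether they were separate cultures, so p-values measure the spread between these libraries. SSB mRNA has no row in the table, so the depletion itself was not measured here.

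MicroRNAs are short RNAs cut from hairpins. Most are transcribed by RNA polymerase II, often within introns of host genes, trimmed to a hairpin in the nucleus by Drosha with DGCR8, exported, cut by Dicer in the cytoplasm, and loaded into Argonaute, where the seed (bases 2 to 8) pairs with target mRNAs. La binds the run of uridines that ends transcripts of RNA polymerase III, such as pre-tRNAs, and is known mainly as a nuclear protein that guards these ends. A few annotated microRNAs lie inside snoRNAs, next to tRNA genes or inside ribosomal DNA, and their rows take up reads of those RNAs.

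The mature sequences below (RefSeq, GRCh38.p14) belong to the hairpins that passed the test in total RNA after SSB knockdown. The seed is in capitals, and 1 arm is shown for each hairpin although its row can hold reads of both. MIR26A1 and MIR26A2 make the same 5p arm, which shares its seed with miR-26b-5p.
hsa-miR-26a-5p: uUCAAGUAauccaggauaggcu
hsa-miR-26b-5p: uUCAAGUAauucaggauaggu
hsa-miR-191-5p: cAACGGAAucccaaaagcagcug
hsa-miR-424-5p: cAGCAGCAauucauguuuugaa
hsa-miR-345-5p: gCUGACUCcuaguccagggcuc
hsa-miR-542-5p: uCGGGGAUcaucaugucacgaga
hsa-miR-99b-5p: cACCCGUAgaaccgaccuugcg
hsa-miR-589-5p: uGAGAACCacgucugcucugag
hsa-miR-30e-5p: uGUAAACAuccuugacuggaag
hsa-miR-103a-3p: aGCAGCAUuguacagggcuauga
hsa-miR-218-5p: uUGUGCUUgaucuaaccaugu
hsa-miR-21-5p: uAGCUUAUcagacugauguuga
hsa-miR-23b-3p: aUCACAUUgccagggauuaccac

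Other arms are shown because the results on abundance and on the nuclear and cytoplasmic fractions turn on them. miR-16-5p and miR-15a-5p have the seed of miR-424-5p, and miR-503-5p differs from it at the end of the seed. miR-1291 is annotated in a snoRNA and miR-4521 beside a tRNA gene.
hsa-miR-148a-3p: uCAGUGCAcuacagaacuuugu
hsa-miR-222-3p: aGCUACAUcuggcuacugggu
hsa-miR-92a-3p: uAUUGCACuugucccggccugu
hsa-miR-16-5p: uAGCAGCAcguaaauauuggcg
hsa-miR-15a-5p: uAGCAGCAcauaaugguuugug
hsa-miR-503-5p: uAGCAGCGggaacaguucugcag
hsa-miR-1291: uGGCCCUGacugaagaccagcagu
hsa-miR-4521: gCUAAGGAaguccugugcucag

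Libraries differed in depth and in how much of them the members took up. Counts summed over the table ran from 21566000 in a control cyto library to 158245000 in a control nuc library. The rows with a RefSeq hairpin and no other small RNA made up 0.306 to 0.458% of the counts on small RNA rows in total RNA of control and 0.782 to 1.96% of siSSB cells, 1.28 to 3.88% and 1.94 to 6.39% in the cytoplasm, and at most 0.0477% in the nuclear libraries. Among total libraries siSSB replicate 2 had the highest share, and it was also the highest library of many hairpins below. Rows that overlap another small RNA held 63.6 to 74.0% of the members' counts in control nuc but 1.81 to 3.36% in control cyto. SnoRNA rows held 79.7 to 82.9% of the small RNA counts in control nuc and 9.03 to 12.1% in control cyto, and tRNA rows 0.900 to 1.03% and 27.6 to 30.4%, so the fractions differed in their defining RNAs. The labels call the cells epithelial, and the 5 epithelial hairpins of the miR-200 family together had 7 to 9 counts in control total and at most 66 in any library. The blood and neuron hairpins (5 and 3) had no row among the members. Whether they had counts in rows outside the rule or merged with an identical row was not looked up. The liver hairpin MIR122 had at most 7 counts in a library, and the 5 of 9 muscle hairpins with a member row had at most 37 together. MIR126, the hairpin in an EGFL7 intron known from endothelium, had 34 to 53 counts in control total and up to 674 in siSSB cyto.

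The counts were concentrated in few hairpins. Taken here were the 784 named loci classed neither as on another small RNA or rRNA row nor as mitochondrial. Ribosomal DNA outside annotated rRNA rows was not left out, and MIR3648-2, among these loci, led in control nuc with 15.4%. In control total 256 loci had a count in all 3 libraries and 45 had at least 50. The highest 5 held 43.2% of the group's counts and the highest 15 held 66.5%. In control total MIR148A, whose product is known to target the DNA methyltransferase DNMT1, led with 14.2%. In control cells its row (chr7:25949935-25950006, minus strand) had 3113, 3193 and 2914 counts in total RNA, 494, 514 and 379 in nuclear RNA, and 28720, 25263 and 9834 in cytoplasmic RNA. The cytoplasmic libraries were the highest in spite of having the fewest counts in all, and replicate 3 was the lowest of them. Per 100 nt of row, the level of MIR148A in control total was 68.1 ± 8.4 CPM (counts scaled to library size and corrected with the trimmed mean of M values, TMM; SD, n = 3). MIR222, which represses the cell cycle inhibitor CDKN1B, came next at 54.0 ± 9.2 CPM per 100 nt, and MIR92A2 of the miR-106a-363 cluster at 44.1 ± 4.7. The ranges of these neighbours overlapped, so MIR148A and MIR222, and MIR222 and MIR92A2, were not separated beyond the spread of 3 libraries. The range of MIR92A2 lay above that of the next hairpin by this measure, MIR7-3, at 15.4 ± 0.99 CPM per 100 nt. Below it the levels fell in small steps through MIR7-2 (14.8), MIR26A1 (13.2), MIR26A2 (12.9), MIR615 (12.7) and MIR128-1 (12.5) to MIR21 (4.53), the oncogenic microRNA in VMP1, which was the 20th, and of these neighbours none were separated but MIR221 and MIR21. In siSSB total the same 3 hairpins led, with 178.0 ± 83.5, 102.2 ± 11.4 and 76.7 ± 5.8 CPM per 100 nt. The order below these 3 depends on the length of the rows, by which the levels are divided. MIR615 has a row of 146 nt and MIR7-3 one of 73 nt. Before the division they had 18.5 and 11.3 CPM in control total, so MIR615 then stood above MIR7-3. Rows in this order can also share a mature arm. MIR92A2 encodes the same miR-92a-3p as MIR92A1 of the miR-17-92 cluster, which was left out. MIR7-3 encodes the same miR-7-5p as MIR7-1, with 24297 and 23554 counts over all libraries. Which reads such rows hold in common was not tested.

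Not all high rows were microRNA hairpins of their own. Among the 15 rows highest in control total, 6 lay in ribosomal DNA of chromosome 21, among them MIR3687-1 (chr21:8208853-8208926) with 3007, 3749 and 5848 counts. The 23 members classed by overlap with a row annotated as rRNA are called members in ribosomal DNA here. They held 36.2 to 50.5% of all member counts in control total. MIR6087 (chrX:109054519-109054586) overlapped a row annotated as large subunit rRNA. MIR1291 (chr12:48654419-48654555, in a KANSL2 intron) had 6588, 1799 and 1173 counts in total and 30808, 34603 and 37000 in nuclear RNA of control cells. It lies in SNORA2C, an H/ACA snoRNA of the kind that guides pseudouridine formation, and its row held 99.98% of the counts of the SNORA2C row. Nearly full overlap of this kind was also found for MIMAT0041622 on SNORD135 (99.8%), MIR664A on SNORA36B (99.7%), MIR3651 on SNORA84 (99.1%) and MIR1248 on SNORA81 (98.9%). For such rows the counts cannot be told apart from those of the snoRNA. Not every overlap was of this size, and MIR6516 held 5.53% of the counts of the SCARNA16 row it overlaps.

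SSB knockdown was first compared in total RNA. Of 238 members tested 18 rows, at 14 loci, were higher in siSSB and 0 were lower, where 1.34% of all rows tested were called, 0.367% higher and 0.972% lower (edgeR quasi-likelihood test, Benjamini-Hochberg adjusted p under 0.05 over 13883 rows). The 14 loci included the whole miR-26 family, MIR191, MIR424, MIR21 and MIR99B, and their log2 fold changes ran from 1.08 to 2.84 with adjusted p from 0.0122 to 0.0491. Of the tested members 209 (87.8%) had a positive log2 fold change, where 48.9% of all rows had one. At an unadjusted p under 0.05 were 127 members, of which 116 were positive. The share of all rows at this unadjusted p was not counted, here or in the comparisons below. The median log2 fold change was 0.70 over the members and −0.01 over all rows. The direction of the calls rested on the scaling: with libraries scaled to the total of the members themselves, 6 rows were higher and 8 lower. Scaling to library size alone or to the snoRNA total gave 79 and 78 rows, all higher. The median of all rows moved from −0.48 under the member total to 0.72 under the snoRNA total. The members' median stood 0.71 to 0.75 above it under each scaling, but a scaling shifts both medians alike, so this gap is nearly fixed. Over all settings, with filters, fits and libraries changed too, the gap ran from 0.56 to 0.90. The number of calls also rested on single libraries: 1 row was called without control total replicate 2, 7 without control total replicate 3 (5 higher, 2 lower), 7 without siSSB total replicate 2, and 33 without siSSB total replicate 1. Over all 17 settings tried for single rows, each of the 14 loci kept a positive log2 fold change wherever it was tested. These loci were chosen as called higher in the same counts, so their constant sign is no separate evidence.

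**Figure D1:**
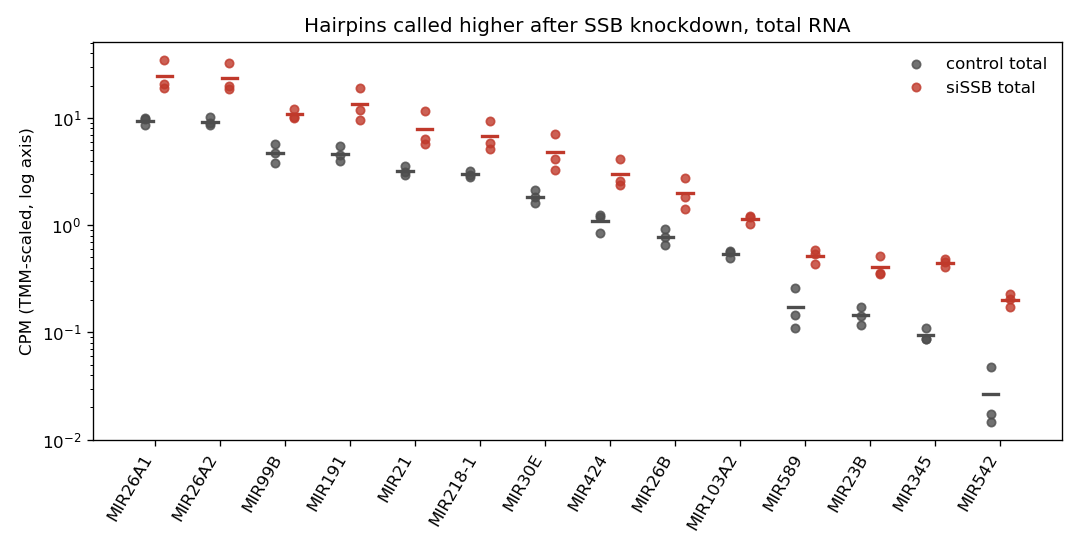
CPM (TMM-scaled, log axis) of the 14 loci called higher in total RNA, in the 3 control total (grey) and 3 siSSB total (red) libraries. Points are libraries and bars are group means. In all 14 loci the lowest siSSB point lies above the highest control point, and for most of them the highest point is siSSB replicate 2. The loci were chosen as called in these same counts, so this separation is no separate evidence. Of the 238 members tested, 122 had groups that did not overlap (117 higher in siSSB), and the share over all rows was not counted.

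The miR-26 family passed the test with all 3 of its members, each in an intron of a small C-terminal domain phosphatase gene (CTDSPL, CTDSP2 and CTDSP1). miR-26 is known to target EZH2 and the mRNAs of its own hosts. MIR26A1 (chr3:37969427-37969498) had 581, 543 and 668 counts in control total and 1182, 2860 and 1325 in siSSB total. MIR26A2 (chr12:57824633-57824704) had 490, 569 and 707 counts and 1158, 2734 and 1274. All siSSB libraries were above all control libraries, with replicate 2 the highest. The log2 fold changes were 1.38 ± 0.29 (SE, adjusted p = 0.0368) and 1.36 ± 0.28 (adjusted p = 0.0381), from 9.47 ± 0.77 to 24.7 ± 8.4 CPM (SD, n = 3) for MIR26A1. The loci share the sequence of their 5p arm, and their counts over all libraries (33819 and 33677) were within 1.1 times of each other, so they are not independent, and which reads both rows hold was not tested. MIR26B (chr2:218402667-218402738), whose 5p arm differs, had 53, 49 and 45 counts in control total and 87, 231 and 119 in siSSB total. Its groups did not overlap either, and its log2 fold change was 1.37 ± 0.29 (adjusted p = 0.0395). The 3 calls were lost in several settings, with 10 or 11 of 17 kept for each.

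Loci with the most stable calls were MIR345, MIR424 and MIR191. MIR345 (chr14:100307834-100307980, no host gene on its strand) rose from 5, 7 and 6 counts to 28, 40 and 26. This was the lowest adjusted p among the members, 0.0122, with a log2 fold change of 2.21 ± 0.32 and 15 of 16 settings called, at levels of 0.0950 ± 0.0139 and 0.447 ± 0.039 CPM. The siSSB libraries were close to each other and well apart from the controls. MIR424 (chrX:134546655-134546726), whose product is known to act on cyclins in the G1 phase, rose from 68, 53 and 85 counts to 146, 342 and 167, with siSSB replicate 2 the highest, by 1.48 ± 0.28 (adjusted p = 0.0292, 15 of 17 settings). MIR542 lies in the same X-linked cluster and rose from 1, 3 and 1 counts to 14, 17 and 11 in its 5p window (chrX:134541375-134541447). Its log2 fold change of 2.84 ± 0.57 (adjusted p = 0.0324) was the highest of the called rows, at a control level of 1 to 3 counts, and its call was kept in 9 of 16 settings. The longer row of MIR542 (2.59 ± 0.58, adjusted p = 0.0491) kept its call in 4 of 16, and with 1 library left out the rows were called in 1 and 0 of these settings. MIR503, between the other hairpins of that cluster, did not pass, with 16, 18 and 24 counts against 34, 42 and 46 (0.94 ± 0.26, adjusted p = 0.0986).

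MIR191 (chr3:49020593-49020733, DALRD3 intron) had 259, 346 and 275 counts in control total and 586, 1574 and 755 in siSSB total. Its groups did not overlap, siSSB replicate 2 was the highest library, its log2 fold change was 1.52 ± 0.29 (adjusted p = 0.0302), and it was called in 14 of 17 settings. MIR425, its neighbour in the same gene, had 0.95 ± 0.29 (adjusted p = 0.126). MIR99B (chr19:51692631-51692702, SPACA6 intron), of a family known to act on MTOR, rose from 329, 242 and 325 to 635, 1003 and 647 counts. Unlike at most of these loci, replicate 2 of siSSB was not far from the others once scaled, with 10.3, 12.1 and 10.1 CPM. The log2 fold change was 1.18 ± 0.24 (adjusted p = 0.0352, 11 of 17 settings), while MIR125A, 1 hairpin further in the same cluster, had 0.72 ± 0.25 (adjusted p = 0.160).

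The remaining called loci had fewer counts or calls nearer the threshold. MIR589 (chr7:5495794-5495942, FBXL18 intron) had 15, 7 and 10 counts in control total and 36, 45 and 28 in siSSB total (1.60 ± 0.33, adjusted p = 0.0364). MIR30E (chr1:40754388-40754459, NFYC intron) had 123, 101 and 125 and then 200, 596 and 266 (1.39 ± 0.30, adjusted p = 0.0433). Replicate 2 of siSSB stood far above the others at MIR30E, but not at MIR589 once scaled to library size (0.585, 0.541 and 0.436 CPM). MIR103A2 (chr20:3917516-3917588), in the pantothenate kinase gene PANK2, had 33, 31 and 39 and then 63, 99 and 79 (1.08 ± 0.23, adjusted p = 0.0440), the smallest called change. MIR218-1 (chr4:20528317-20528388), in an intron of the axon guidance gene SLIT2, had 183, 185 and 194 and then 315, 774 and 378 (1.19 ± 0.26, adjusted p = 0.0465). At MIR218-1 siSSB replicate 2 was again the highest library. MIR103A2 and MIR218-1 have a second copy elsewhere that was not called (MIR103A1 with 0.82 and MIR218-2 with 1.07), at counts within 1.1 times of theirs over all libraries. MIR21 (chr17:59841286-59841356), in an exon of VMP1 and known to target PDCD4, had 205, 187 and 215 counts in control total and 352, 963 and 407 in siSSB total, with replicate 2 the highest (1.29 ± 0.29, adjusted p = 0.0491). MIR23B (chr9:95085194-95085318, AOPEP intron) had 10, 9 and 8 and then 22, 29 and 33 (1.49 ± 0.33, adjusted p = 0.0491). The last 2 were just inside the threshold, and the call of MIR23B was kept in 3 of 16 settings and that of MIR21 in 8 of 17.

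By kind of row, all 18 calls were on RefSeq hairpins free of another small RNA, of which 161 rows were tested, 156 with a positive value and a median of 0.80. Those in introns had a median of 0.92 over 99 rows (13 called), those in exons 0.75 over 38 rows (1 called), and those with no host gene on their strand 0.72 over 24 rows (4 called). The 17 rows on another small RNA had a median of −0.30, with 14 negative and 0 called. The 23 rows in ribosomal DNA had a median of 0.19 and the 3 mitochondrial rows lay between 0.07 and 0.34, with 0 called. Under the member total the medians of all kinds move down together, so the order of the kinds and not their sign is read here, and the difference between kinds was not tested.

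**Figure D2:**
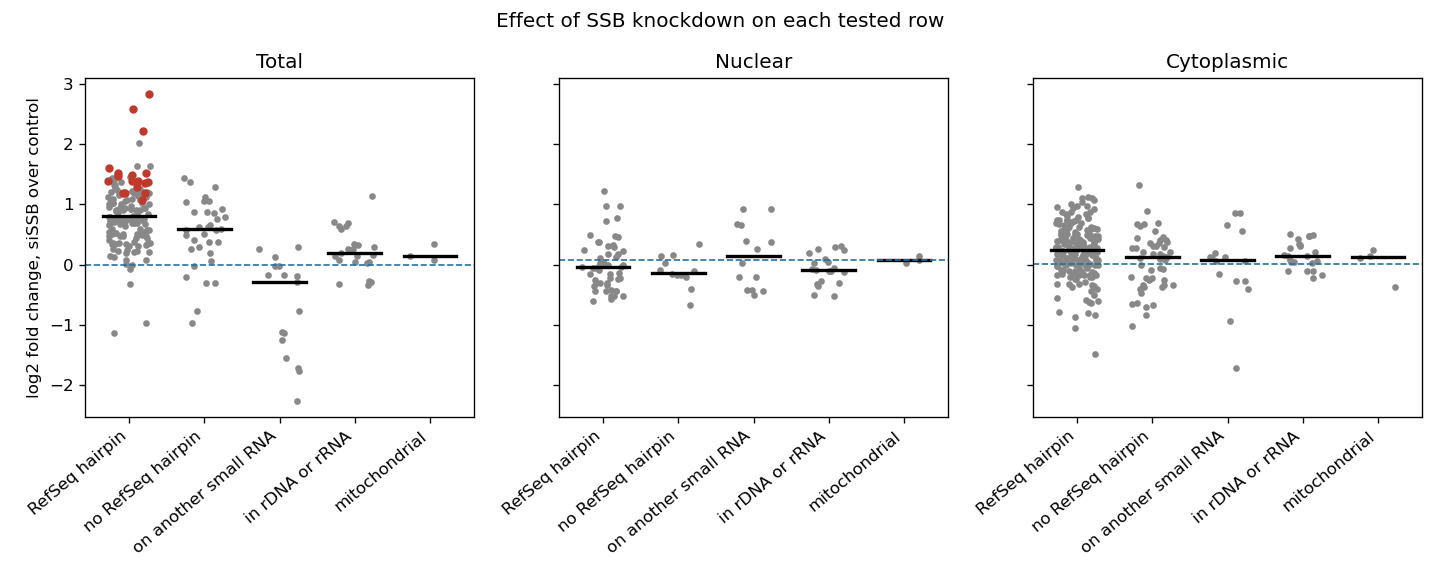
Log2 fold change of siSSB over control for each tested row in total, nuclear and cytoplasmic RNA (edgeR, TMM), by kind of row. Red points passed the test, black bars are medians and the blue dashed line is the median of all rows of the table. In total RNA the RefSeq hairpins lie mostly above the line (median 0.80) and rows on another small RNA mostly below (−0.30), while in both fractions the medians stay near the line.

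Hairpin families known to act together were counted one by one, in total RNA, beside the median of −0.01 over all rows. The miR-26 family had 3 of 3 tested hairpins called, with a median of 1.37. The miR-30 family, with a seed shared by all of its members, had 1 of 6 called (MIR30E) and a median of 1.23, and the highest adjusted p was that of MIR30B (0.26 ± 0.32, adjusted p = 0.760). The miR-23/27/24 clusters had 1 of 5 called and a median of 1.01, the miR-99/100 and miR-125 list 1 of 5 and 0.91, miR-103 with miR-107 1 of 2 and 0.95, and the miR-15/16 family 1 of 6 and 0.82. Within the last, MIR15A stayed at −0.08 ± 0.30 and MIR16-1 at 0.35 ± 0.27 (adjusted p = 0.942 and 0.596). No hairpin was called in the miR-106b-25 and miR-106a-363 clusters (5 tested, median 0.80), miR-181 (5, 0.71), the miR-183 cluster (3, 1.09), miR-221 with miR-222 (2, 0.83), miR-148 with miR-152 (2, 1.35) or miR-130 with miR-301 (2, 0.99). MIR148A itself went from 3113, 3193 and 2914 counts to 5477, 16424 and 6310, a log2 fold change of 1.39 ± 0.36 (adjusted p = 0.0796) that did not pass, with siSSB replicate 2 far above its fellows. Of 10 hairpins chosen for their host genes 8 were tested and MIR21 and MIR191 were called (median 0.96), and MIR1301 in DNMT3A (0.98 ± 0.24, adjusted p = 0.0785) and the hypoxia-induced MIR210 (1.00 ± 0.26, adjusted p = 0.0854) were not. The miR-29 family had 1 hairpin tested, MIR29A (0.80 ± 0.44, adjusted p = 0.419), and the p53-responsive miR-34 family none. The imprinted DLK1-DIO3 cluster had a member row for 1 of 48 listed hairpins, MIR543 with 3 counts, and the primate cluster on chromosome 19 for 0 of 41. Hairpins without a member row were not looked up in the whole table, so their counts are not given here.

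In the fractions no member passed. In nuclear RNA 103 members were tested and 0 were called by edgeR or by DESeq2, with 5 at an unadjusted p under 0.05, all positive, where 0.378% of all rows were called (0.0291% higher, 0.349% lower). The median was −0.06 over the members and 0.08 over all rows. In cytoplasmic RNA 302 members were tested and 0 were called, with 32 at an unadjusted p under 0.05, of which 25 were positive, where 0.291% of all rows were called (0.0211% higher, 0.270% lower). DESeq2 called 1 row there, MIR4521 (described below), lower in siSSB. The medians were 0.18 and 0.01, and that of the members was 0.04 without control cyto replicate 3 and −0.13 without siSSB cyto replicate 3. The 18 rows that rose in total RNA were all positive in the cytoplasm, with a median of 0.43 (0.08 to 0.98) and a lowest adjusted p of 0.687, and 3 of the 10 tested in the nucleus were positive, with a median of −0.01. MIR26A2 had 4354, 3741 and 2154 counts in control cyto and 4709, 2329 and 9100 in siSSB cyto. At MIR148A the cytoplasmic counts were 28720, 25263 and 9834 against 20883, 7763 and 49750. Once scaled, siSSB replicate 3 was the highest library there (1767 CPM) and control replicate 3 and siSSB replicate 2 the lowest (271.5 and 287.4 CPM), and the log2 fold change of 0.08 had an SE of 0.65 (adjusted p = 0.994). The knockdown effect in the nucleus minus that in the cytoplasm was called in 0 of 411 members, with 16 at an unadjusted p under 0.05, 0 by DESeq2, where 0.0133% of all rows were called (0.008% higher, 0.00533% lower). The nuclear value of largest size among hairpins was that of MIR503, noted after its values were seen, with 10, 9 and 10 counts in control nuc and 18, 28 and 25 in siSSB nuc (1.22 ± 0.36, adjusted p = 0.182). Its nuclear groups did not overlap.

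A row beside a tRNA gene had lower counts after knockdown, without passing the test. MIR4521, named here after its values were seen, begins 1 nt after the last base of the serine tRNA gene tRNA-Ser-GCT-3-5 (gene end at position 8186947 of chromosome 17), on the same strand. The mature sequence is followed in the genome by 4 thymidines (capitals), the kind of run at which RNA polymerase III stops, and the 3′ trailer of a pre-tRNA lies between its gene and such a run.
MIR4521 with the bases after it, chr17:8186948-8186973, plus strand, GRCh38.p14: gctaaggaagtcctgtgctcagTTTT
Its row (chr17:8186923-8186994) had 528, 479 and 542 counts in control cyto and 146, 101 and 256 in siSSB cyto. In total RNA its level was 5.30, 2.71 and 2.93 CPM in control and 1.28, 0.938 and 2.37 CPM in siSSB libraries. The nuclear counts were 63, 50 and 54 in control and 55, 64 and 58 in siSSB. The siSSB libraries were below all control libraries in cytoplasm and total, and the nuclear groups overlapped. The log2 fold changes were −1.72 ± 0.37 in cytoplasm (adjusted p = 0.103, from 19.3 ± 3.7 to 5.83 ± 2.86 CPM), −1.26 ± 0.36 in total (adjusted p = 0.108) and 0.02 ± 0.27 in the nucleus (adjusted p = 0.976), and none passed. The cytoplasmic and the total value were negative in 17 of 17 settings and called in 5 each. DESeq2, scaling to the member total and the fit without a filter were among these in both. In the cytoplasm the values ran from −2.21 to −1.35, and the row was called without siSSB cyto replicate 3, the highest of its group. The test of the nuclear against the cytoplasmic effect gave 1.57 (adjusted p = 0.960). Between fractions the row was lower in the nucleus in control cells (−1.28 ± 0.31, adjusted p = 0.00215) and not called in siSSB cells (0.29 ± 0.37, adjusted p = 0.623). The row overlaps that of the tRNA by 50 nt. As the tRNA row ends at position 8186972, reads on the 3′ end of the tRNA and on the miR-4521 sequence count in both. The tRNA row had 706, 642 and 936 counts in control cyto and 422, 251 and 393 in siSSB cyto. These counts include the shared stretch, so they do not show a separate fall of the tRNA. Which part of the reads on the MIR4521 row are of the tRNA and which of the trailer was not tested.

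**Figure D3:**
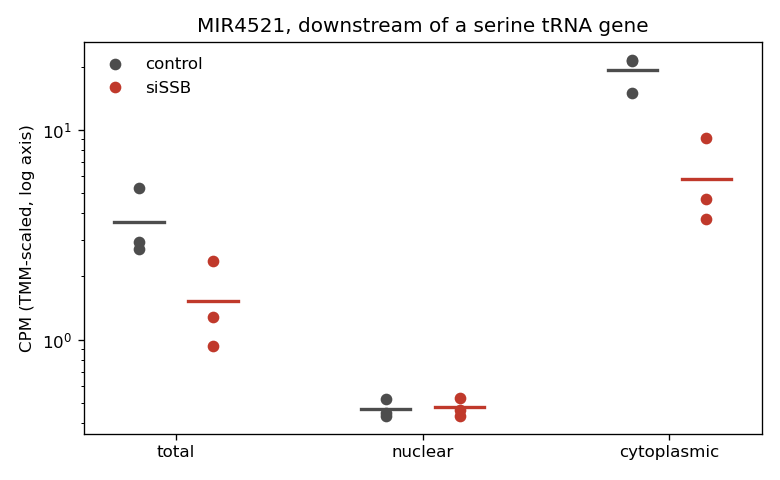
CPM (TMM-scaled within each comparison, log axis) of the MIR4521 row in control (grey) and siSSB (red) libraries of total, nuclear and cytoplasmic RNA. Points are libraries and bars are means. The red points lie below the grey ones in total and cytoplasmic RNA and among them in nuclear RNA.

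Nuclear and cytoplasmic RNA were then compared, to ask where the members lie in the cell. In control cells 252 of 332 tested members differed, 37 higher and 215 lower in the nucleus, where 23.3% of all rows tested were called (9.21% higher, 14.1% lower). The members' median log2 fold change was −2.86 and that of all rows −0.27. In siSSB cells 269 of 324 differed, 33 higher and 236 lower, where 25.3% of all rows were called (10.8% higher, 14.5% lower), with medians of −3.36 and −0.19. The split of the calls in control cells was 9 higher and 312 lower under library size alone, 5 and 323 with the snoRNA total, and 29 and 274 with the members' own total. The median of all rows was −4.33, −6.10 and −1.40 in these settings. The members' median stood 2.49 to 2.59 below it under every scaling, a gap that a scaling hardly moves. Over all settings the members' median minus that of all rows ran from −3.01 to −1.04, the latter without a filter. Fewer cells and less RNA per cell cannot be told apart in such bulk libraries, and a value gives the share of a fraction's RNA and not the share of a microRNA's molecules.

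RefSeq hairpins free of another small RNA had 173 of 233 tested rows lower and 7 higher in the control nucleus (median −3.14), and 190 of 226 lower and 5 higher in siSSB (median −3.57). The rows named next were called, averaged 50 counts or more and had fractions that did not overlap. Among these MIR424 had 5, 2 and 1 counts in the nuclear and 419, 341 and 242 in the cytoplasmic libraries of control cells (−5.08 ± 0.51, adjusted p = 1.15e-09). It was followed by MIR505 (−4.82), MIR27B (−4.62), MIR99A (−4.40), MIR125A (−4.28) and MIR222 (−4.24), all with cytoplasmic counts above nuclear ones in all libraries. By the same limits the lowest in siSSB cells were MIR1301, MIR330 (−5.59 ± 0.64), MIR210 (−5.58 ± 0.58), MIR182 (−5.25), MIR146B (−5.18) and MIR26A2 (−4.87). MIR210 had 2, 0 and 1 nuclear and 193, 135 and 201 cytoplasmic counts in siSSB cells, and MIR1301 had 4, 0 and 1 and 432, 313 and 513. Where nuclear counts were this low, as at MIR424, MIR210 and MIR1301, fold changes move with few reads. All tested hairpins of the lists given above for total RNA were negative in control cells except for 2 of the miR-15/16 family.

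Rows on another small RNA lay on the opposite side, with 13 of 17 higher and 1 lower in the control nucleus (median 3.19) and 13 higher and 0 lower in siSSB. They were led by MIR1291, whose nuclear counts given above stand against 173, 146 and 316 in control cyto (9.37 ± 0.42, adjusted p = 2.03e-16). MIMAT0041622 on SNORD135 followed with 8.16 ± 0.41, then MIR664B (7.53 ± 0.42) in DKC1, the gene of the pseudouridine synthase dyskerin. MIR664A had 5.91 ± 0.41 and MIR3651 5.32 ± 0.45. Among rows with no RefSeq hairpin, an unnamed one at chr22:29333151-29333218, in an AP1B1 intron, was the highest with 7.13 ± 0.40. All of these were called with no overlap of the fractions, in both conditions. In siSSB cells the window on miR-1291 had 8.85, MIMAT0041622 8.41 and MIR664B 7.33. MIR3651 turned to −0.52 in control cells when libraries were scaled to the snoRNA total, which is itself made of RNAs of this kind. Ribosomal DNA rows were mixed, with 12 higher and 3 lower of 23 in control cells, and MIR3687-1 was lower (−0.91 ± 0.32, adjusted p = 0.0391).

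**Figure D4:**
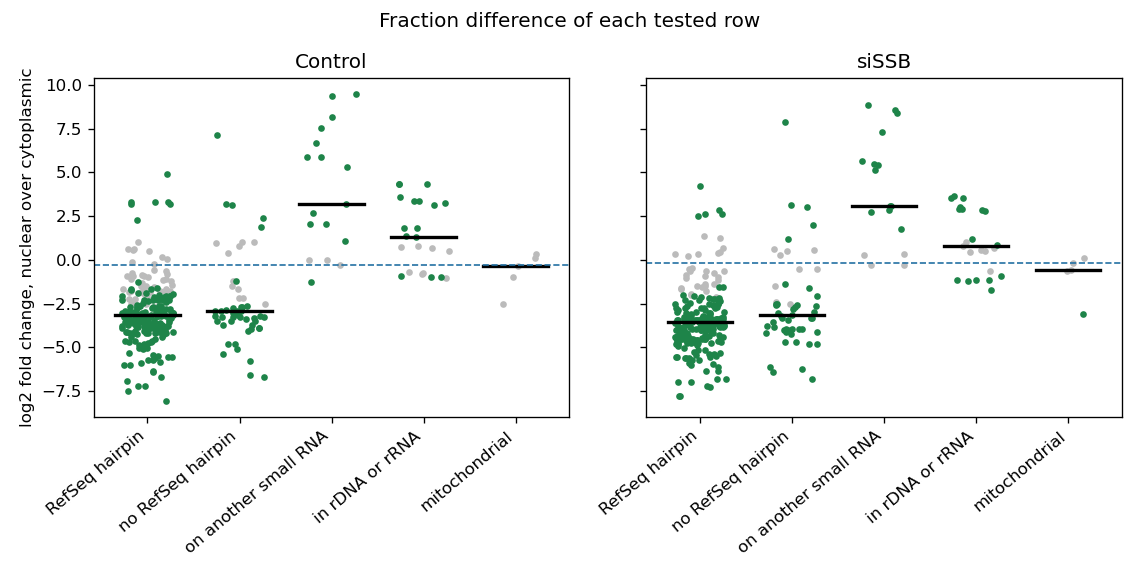
Log2 fold change of nuclear over cytoplasmic RNA for each tested row in control and siSSB cells (edgeR, TMM), by kind of row. Green points passed the test, black bars are medians and the blue dashed line is the median of all rows. RefSeq hairpins lie mostly below the line in both conditions, and rows on another small RNA mostly above it.

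Of the miR-15/16 family, MIR15A was called higher in the nucleus of control cells, MIR16-1 and MIR503 (−0.77 ± 0.38, adjusted p = 0.153) were not called, and the other tested members were called lower. MIR15A and MIR16-1 lie in 1 intron of DLEU2, a region known for its loss in chronic lymphocytic leukaemia, and their products target BCL2. MIR15A (chr13:50049094-50049226) had 44, 54 and 62 nuclear and 42, 30 and 64 cytoplasmic counts in control cells, which overlap. The log2 fold change was 2.26 ± 0.35 (adjusted p = 4.04e-06) under TMM, but −1.87 under library size alone and −3.65 with the snoRNA total, so its direction is set by the scaling. MIR16-1 (chr13:50048948-50049086) had 39, 49 and 57 nuclear and 156, 112 and 85 cytoplasmic counts, and MIR16-2, in an SMC4 intron on chromosome 3 (chr3:160404720-160404850), had 22, 22 and 8 and 1090, 843 and 410. MIR16-2 was lower in the nucleus (−3.67 ± 0.44, adjusted p = 4.19e-08) and MIR16-1 was not called (0.63 ± 0.36, adjusted p = 0.234).

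Shares within a library do not depend on the scaling, and were computed for these hairpins after their values were seen, so that differences between fractions are given without a test. Both MIR16 loci encode the same miR-16-5p, and of their summed counts MIR16-1 held 63.9, 69.0 and 87.7% in nuclear and 12.5, 11.7 and 17.2% in cytoplasmic control libraries. In siSSB cells the shares were 66.7, 78.0 and 79.7% in the nucleus and 17.2, 20.3 and 14.2% in the cytoplasm. In both conditions all nuclear libraries were above all cytoplasmic ones, by 59.7 and 57.6 percentage points on average. Of 12 mature arms with 2 or 3 copies among the members and enough counts, 9 had copies within 1.1 times of each other over all libraries. Both arms of miR-9 are among these and rest on the same 3 rows, and copies outside the members were not compared. Among the 12 arms, the miR-16 pair was the only one that differed by over 1.5 times, with 1391 and 5659 counts.

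Counts on the hairpin row that fall outside the row of the mature arm showed the same split between fractions at MIR15A, MIR4449 and MIR106B in control cells, but not at all hairpins. For MIR15A, 86.4, 96.3 and 90.3% of the hairpin's counts lay outside the window on the 5p arm in control nuc, and 11.9, 26.7 and 40.6% in control cyto. In siSSB the shares were 84.9, 92.7 and 98.5% in the nucleus and 38.2, 83.3 and 23.5% in the cytoplasm, where replicate 2 rested on 12 counts. The nuclear libraries were above the cytoplasmic ones in both conditions. MIR4449 (chr4:52712657-52712772), in an exon of the long non-coding RNA DANCR, was higher in the nucleus (4.88 ± 0.37, adjusted p = 1.9e-12, 205, 162 and 162 counts against 14, 22 and 35), and had 85.4, 58.6 and 77.8% outside its arm window in control nuc against 7.14, 13.6 and 25.7% in control cyto. MIR106B, in an MCM7 intron, had 53.6, 59.1 and 41.7% outside the window on its 5p arm in control nuc and 0, 0 and 0.34% in control cyto, from 12 to 28 nuclear counts, and in siSSB nuc its shares were spread from 0 to 77.4%. MIR1248 on SNORA81 did not show the split, with 66.7 to 81.4% in control nuc and 57.3 to 77.0% in control cyto, which overlap. Other hairpins went the other way in control cells, among them MIR3651 and MIR12136. MIR3651 had 10.3 to 13.5% in control nuc and 41.7 to 100% in control cyto, from 13, 2 and 12 cytoplasmic counts. MIR12136 had 3.21 to 13.0% in control nuc and 14.8 to 17.7% in control cyto. Most hairpins with the split were not typical. Over all libraries, 21 of the 27 hairpins with both kinds of row and at least 200 counts had under 5% outside the arm window. MIR106B was among these, and 4 hairpins had over 15%. Between siSSB and control the MIR16-1 share differed by −2.77, 1.26 and 3.41 percentage points in total, nuclear and cytoplasmic RNA, with overlapping groups (two-sided exact permutation test, p = 0.7, 0.9 and 0.2, where 0.1 is the smallest that 3 against 3 can give).

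**Figure D5:**
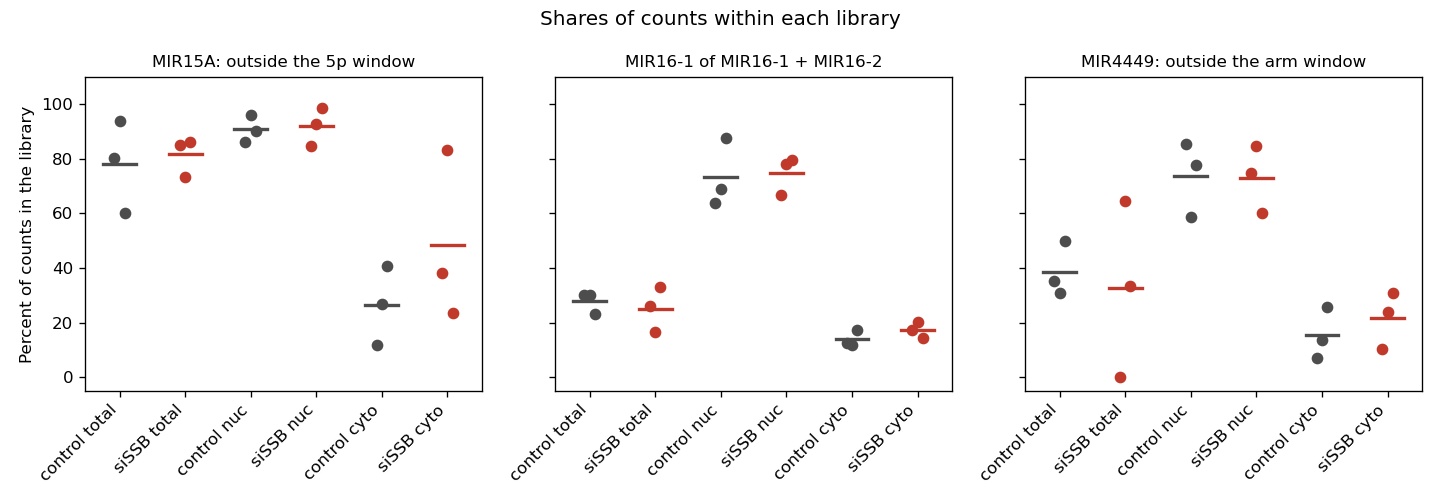
Percent of counts in each library for MIR15A outside its 5p window, for MIR16-1 among both MIR16 hairpins, and for MIR4449 outside its arm window, in control (grey) and siSSB (red) libraries of each fraction. Points are libraries and bars are means. The nuclear points lie above the cytoplasmic ones in all 3 panels in control cells, and those of total RNA mostly lie between or overlap them.

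At MIR744, whose arms lie far enough apart for their rows to differ, the arms could be told apart. The hairpin row in a MAP2K4 intron (chr17:12081874-12082021) had 6062 counts over all libraries, the window on the 5p arm 6037 and that on the 3p arm 37. In control total the 5p window had 274, 245 and 284 counts and the 3p window 0, 4 and 0, so nearly all reads of this hairpin were of the 5p arm in these libraries.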

How the data were processed

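The authors deposited 1 table of raw counts per annotated non-coding RNA for 18 small RNA libraries (6 groups, 3 replicates). The submitters' processing notes name Bowtie2, bedtools and hg38. The study's methods name TrimGalore, Bowtie2 and BEDTools over an RNAcentral annotation for its other sequencing data. Its reporting summary lists versions of these tools for eCLIP and RNA-seq data together, and does not name these small RNA libraries. Whether those versions and the read trimming apply here is not stated. Multi-mapping and use of strand are not given in the sources used here. Overlapping rows count a read each, so paralogs and overlapping RNAs share counts. Groups and replicate numbers came from the labels. Counts were fitted over the whole table with edgeR 4.0.16 in R 4.3.3 (filterByExpr, TMM, quasi-likelihood F-test, Benjamini-Hochberg over all rows tested, called at 0.05), with the libraries of each comparison only, or 12 for the interaction. Errors of fold changes are SEs. Host genes came from GENCODE 44, sequences and hairpins from RefSeq. Named members were the 15 highest in control total, all called members (up to 20) of a knockdown comparison, and the 6 highest and lowest of each fraction comparison with a mean of at least 50 counts and groups that do not overlap, and examples from lists. Members and lists were chosen with earlier results of these data known. Deviations of control nuc and cyto libraries of the same number were only weakly correlated (0.144, 0.191 and 0.205), and with the replicate block 39 rows were higher and 210 lower. For siSSB nuc and cyto the correlations were −0.010, 0.269 and 0.123, and for control and siSSB cyto −0.310, −0.678 and −0.801. Scripts were tested on simulated data. Counting error alone limits rows of few counts. DESeq2 1.42.0 and the other alternatives are given in the closing section.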

Additional observations from a re-analysis of the deposited data

How the results depend on the processing

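The 18 rows called in total RNA became 13 with DESeq2's size factors in edgeR and 14 with the member total, 79 by library size, 78 by the snoRNA total, 36 with DESeq2 (34 higher, 2 lower), 53 without a filter (46 higher, 7 lower), 62 with at least 50 counts in 3 libraries (61 higher, 1 lower), 11 with identical rows taken once, 5 with all 18 libraries in 1 fit (4 higher, 1 lower) and 4 with TMM before the filter, which was chosen after seeing the data. Leaving out 1 library gave 1 to 33. In total RNA the numbers did not pair the libraries (correlations of 0.153, 0.312 and −0.565), and with the replicate block 9 rows were called (8 higher, 1 lower). The cause of these changes was not tested. In the cytoplasm 0 rows became 1 with the member total, 1 with DESeq2, 2 without a filter and 1 with all 18 libraries, all lower in siSSB, and 0 to 1 with a library left out. In the nucleus 0 rows were called in all 19 settings. The counts between fractions fell to 140 in control and 128 in siSSB with at least 50 counts in 3 libraries, where fewer rows are tested, and without 1 library they ran from 208 to 273 and from 228 to 290. The interaction gave 0 to 1 with a library left out, and the 1 row came without siSSB cyto replicate 3. The replicate block changed no other number of calls by over 1.5 times. Fraction differences that turned round were MIR3651 (−0.52 with the snoRNA total, control), MIR16-1 (−3.56 by library size, −5.41 by the snoRNA total), MIR15A (−1.87 and −3.65), and with the snoRNA total in siSSB the arm windows of MIR3651 (−0.078) and MIR664A (−0.40). Leaving out rows on another small RNA, rRNA or mitochondrial rows left 18 calls in total RNA.

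Rows of under 10 counts, nuclear hairpins above all, are limited by depth. Multi-mapped and overlapping reads and strand could not be checked from the table.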

Other observations

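The largest falls in total RNA were on rows of another small RNA and did not pass the test. MIR1291 had 6588, 1799 and 1173 counts in control total and 861, 410 and 1896 in siSSB total, and its groups overlapped. MIMAT0041622 had 1619, 578 and 401 and then 282, 203 and 495, and the SNORD135 row that covers it had 1623, 578 and 409 and then 287, 206 and 504. In both rows control replicate 1 stood far above its fellows. In nuclear RNA MIR1291 had 30808 to 37000 counts in control and 23137 to 32578 in siSSB. The SNORD135 row had 4516, 3224 and 4961 nuclear counts in control and 4666, 6354 and 5147 in siSSB.

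MIR126 had 44, 34 and 53 counts in control total, 71, 229 and 89 in siSSB total, 349, 271 and 185 in control cyto and 360, 162 and 674 in siSSB cyto. It has a host gene, EGFL7, that is known from endothelium, and these are counts in a kidney line.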
